A study of Mus musculus with 2 samples.

Results

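Endoplasmic reticulum and secretory pathway genes were examined as 1 set of 41 named genes, all of which were found among the 27998 genes of the count tables. The genes were named for their place in the pathway, with earlier results of these data known. Some, such as Kdelr2, Copz2 and Serpinh1, are listed by the paper as lower in its mutant cell cluster than in wild-type tenocytes of these same libraries. The set falls into 11 chaperones and folding enzymes, 4 genes for collagen folding, 9 for translocation into the reticulum, 12 for vesicle traffic and retrieval, and 5 transcription regulators. The counts came from single-cell RNA sequencing of limb tendons of mouse pups at P7, with 1 library for Tgfbr2;ScxCre mutants and 1 for controls, and tendons of the forelimbs and hindlimbs of 2 pups pooled in each. In the mutants a floxed Tgfbr2, the type II TGFβ receptor, was deleted by a Cre that the regulatory sequence of Scx drives in tendon cells, an activity that is uneven in the embryo. According to the paper, targeting becomes complete soon after birth, and receptor staining was almost gone from mutant tendons of newborns. All mice of the study also carried the tendon reporter ScxGFP and the Ai14 Rosa26-tdTomato (RosaT) Cre reporter, so that Scx counts include transcripts of ScxGFP. The control is labelled wild-type in its title and genotype, while its description carries the letters Het. It is called the wild-type library here. Since each condition was 1 library, no replicates show the error, no test was made, and library, animals and condition cannot be told apart.

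Proteins bound for the outside of the cell enter the endoplasmic reticulum through the Sec61 channel, fold there with the help of chaperones, and leave in COPII vesicles, while COPI vesicles and the KDEL receptors bring escaped chaperones back. Tendon cells secrete type I procollagen in large amounts, and its folding needs helpers of its own, among them prolyl hydroxylase, proline isomerases and the collagen chaperone Hsp47. When unfolded protein builds up, the sensors of the unfolded protein response raise transcription of chaperone genes and other genes through several factors, among them Xbp1 and Atf4.

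Cells were divided by fixed gates. Scx-high cells held at least 30 Scx UMIs (unique molecular identifiers, each marking 1 captured mRNA molecule) per 10000, and Scx-low fibroblasts held fewer but at least 5 UMIs summed over Ly6a, Cd34, Dpt, Lum and Col3a1. The wild-type library had 1178 Scx-high cells, 828 Scx-low fibroblasts and 358 other cells. The mutant library had 235, 1910 and 447. Median depth was 3866.5 and 2828 UMIs per cell, and 2 cell barcodes occurred in both libraries. The gates are not cell types, and the markers showed what each held. The 9 tenocyte markers include Scx, which sets the gate, and collagen genes such as Col1a1. They summed to 161273 CPM (counts per 1000000 UMIs of the class) in wild-type and 71292 in mutant Scx-high cells, and to 19459 and 21395 in the Scx-low fibroblasts. In wild-type and mutant Scx-high cells Col1a1 gave 73183 and 20467 CPM, Tnmd 7393 and 5404, and Scx 25435 and 27937. Fibroblast markers, 5 of 9 of them used in the gate, summed to 1092 and 7335 in Scx-high cells. The 6 pericyte or smooth muscle markers, all detected in both classes of both libraries, summed to 569 and 2033 in Scx-high cells and to 6938 and 960 in Scx-low fibroblasts, in the same order of libraries. Tgfbr2 had 45.0 CPM in the wild-type library and 64.2 in the mutant one. These libraries read the 3′ ends of mRNA, which no source used here places inside the deleted segment, so that this level does not check the deletion.

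The 41 genes took a larger share of the UMIs in Scx-high cells than in Scx-low fibroblasts, in both libraries. Summed over cells, they made up 211 of each 10000 UMIs in wild-type and 193 in mutant Scx-high cells. In Scx-low fibroblasts they made up 144 and 152, and in other cells 50.4 and 58.5. Other cells without those in which haemoglobin exceeded 50% of UMIs held 81.2 and 82.8. The order of the 3 classes was thus the same in both libraries. Per cell, the middle of the distribution lay at 208 (10th to 90th percentile 149 to 268) in wild-type and 190 (114 to 254) in mutant Scx-high cells. It lay at 142 (90.4 to 208) and 143 (93.6 to 211) in the Scx-low fibroblasts. The classes therefore overlapped cell by cell. At an equal 1500 UMIs drawn from every cell, without 89 wild-type and 19 mutant Scx-high cells and 43 and 171 fibroblasts that were shallower, the medians were 207 and 183 in Scx-high cells and 140 and 140 in fibroblasts.

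**Figure D1:**
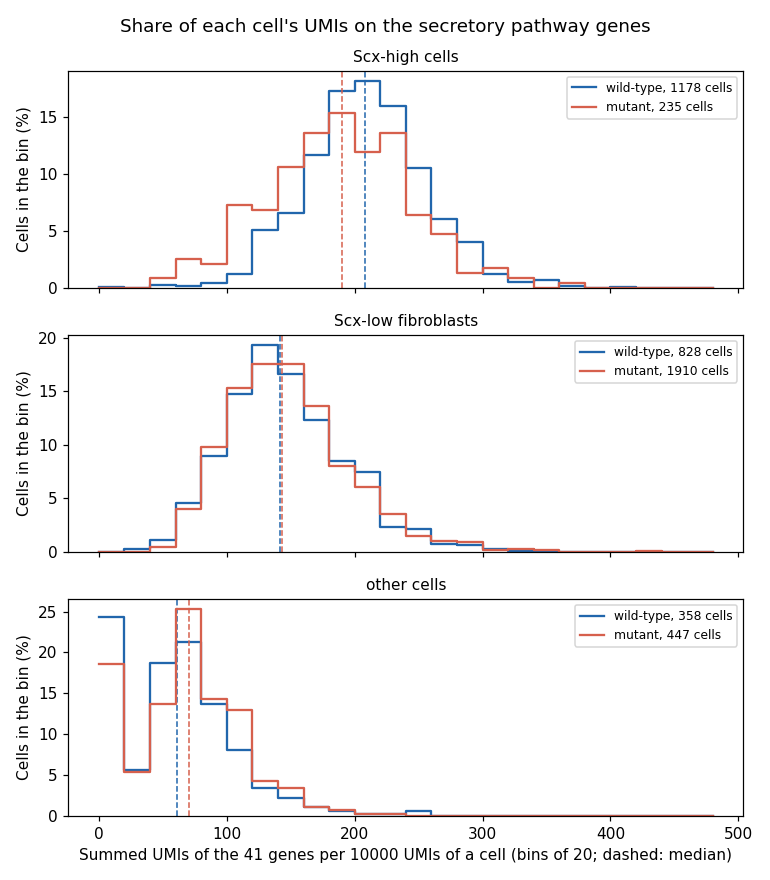
Share of cells (%) by the summed UMIs of the 41 genes per 10000 UMIs of a cell, in bins of 20, for the 3 classes of cells in the wild-type (blue) and mutant (red) library, with medians as dashed lines. The medians were 208 and 190 in Scx-high cells, 142 and 143 in Scx-low fibroblasts, and 61.3 and 70.2 in other cells, which include haemoglobin-rich cells.

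**Figure D2:**
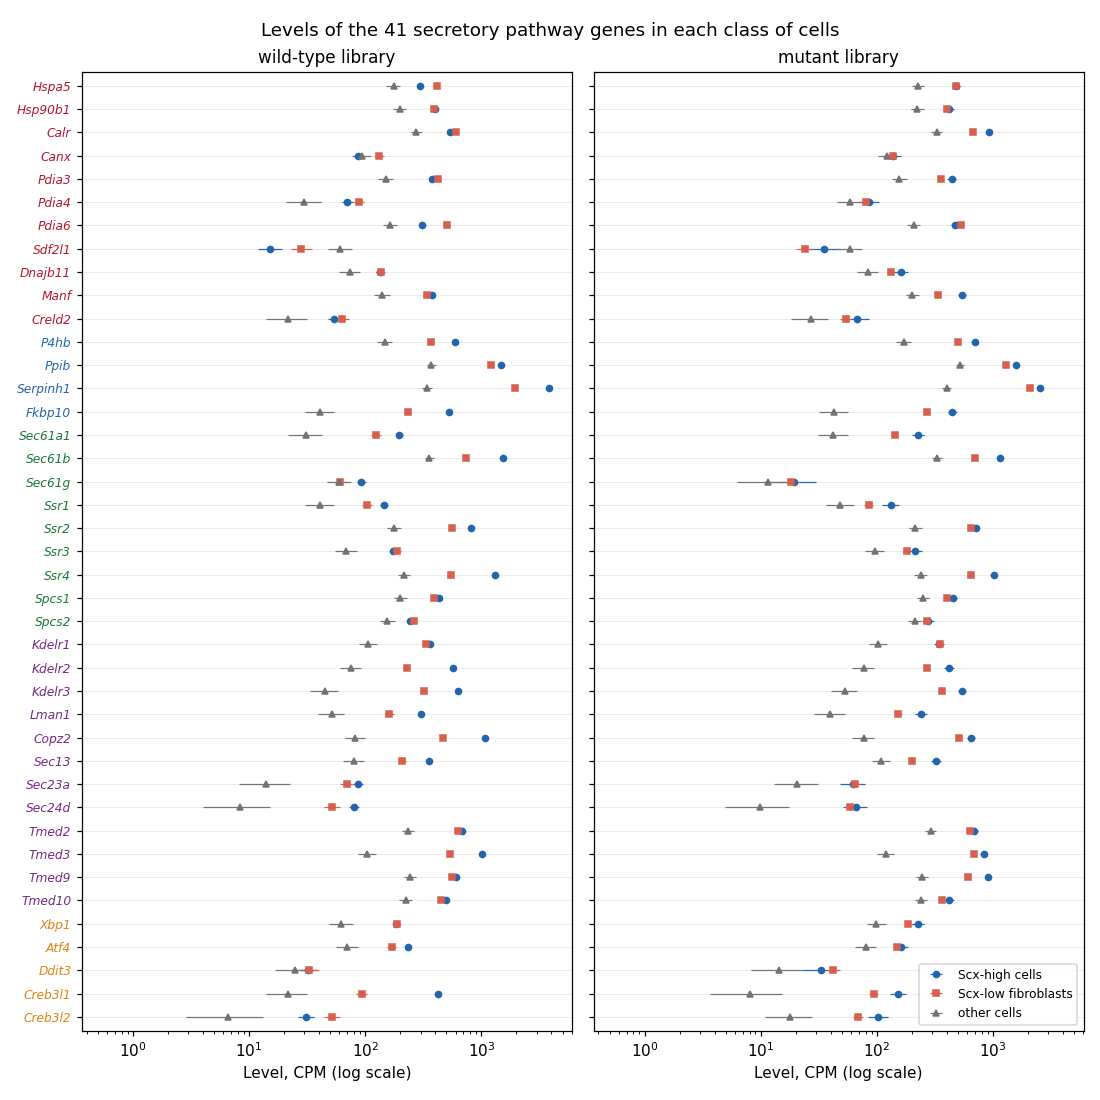
Summed CPM (log scale) of each of the 41 genes in Scx-high cells, Scx-low fibroblasts and other cells of each library, with exact 95% Poisson intervals that cover counting error only. Gene names are coloured by role, from chaperones at the top to regulators at the bottom. Serpinh1 had the highest level of the set in Scx-high cells, 3808 in the wild-type library and 2513 in the mutant one.

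Within the wild-type library, the summed genes for collagen folding, translocation and vesicle traffic were higher in Scx-high cells than in Scx-low fibroblasts, while on the scale of all UMIs the summed chaperones were not. Here and below, genes with a mean of at least 30 CPM over both groups were compared, which left out Sdf2l1, and 1.5-fold is the size at which a gene is counted as higher or lower. Of 40 members compared, 15 were at least 1.5-fold higher (9.2% of all 3893 genes compared were) and 3 were at least 1.5-fold lower (36.3% of all genes). The 15 were 3 of 4 collagen folding, 4 of 9 translocation and 7 of 12 vesicle genes and 1 of 5 regulators. They include Serpinh1, Ssr4, Kdelr2, Kdelr3, Lman1, Copz2, Sec13 and Creb3l1, which the paper lists as lower in its dedifferentiated mutant cluster than in wild-type tenocytes. This count is therefore not independent of those results. The libraries are compared below within each class, which is not the paper's contrast. Between mutant Scx-low fibroblasts and wild-type Scx-high cells, Kdelr2 gave 268 and 565 CPM, Ssr4 645 and 1302, and Creb3l1 93.6 and 426. Whether those fibroblasts are the paper's dedifferentiated cells was not tested. The median log2 ratio was 0.21 over members and -0.39 over all genes. This shift of all genes went with the share taken by abundant transcripts: the 20 most abundant genes held 29.9% of the UMIs of wild-type Scx-high cells and 13.2% in the fibroblasts. Set against the median gene, 20 members were higher and 0 lower by this size.

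The collagen folding genes summed to 63.9 per 10000 UMIs in wild-type Scx-high cells and 37.5 in Scx-low fibroblasts, a ratio of 1.70 (95% interval 1.67 to 1.74). Serpinh1, which encodes the collagen chaperone Hsp47, gave 3808 and 1934 CPM, 1.97-fold higher in Scx-high cells (1.91 to 2.03). Fkbp10, a proline isomerase that acts on procollagen, gave 524 and 232, 2.26-fold higher (2.09 to 2.45). P4hb, both a disulfide isomerase and a subunit of prolyl 4-hydroxylase, gave 591 and 371. Ppib, the isomerase cyclophilin B, differed least of the group, at 1465 and 1211.

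Translocation genes summed to 49.3 and 29.7 per 10000 (ratio 1.66, 1.62 to 1.70). Among the subunits of the Sec61 channel, Sec61b gave 1524 and 742 CPM and the pore subunit Sec61a1 gave 197 and 124. Ssr4, of the translocon-associated TRAP complex, gave 1302 and 545, 2.39-fold higher (2.27 to 2.52). Its partner Ssr3 gave 174 and 186 and the signal peptidase subunit Spcs2 gave 245 and 260, so the group did not move as 1 block.

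Vesicle traffic genes summed to 62.5 and 40.2 per 10000 (ratio 1.55, 1.52 to 1.59), and 7 of 12 were at least 1.5-fold higher. Among the receptors that retrieve chaperones bearing a KDEL tail, Kdelr2 gave 565 and 227 CPM, 2.49-fold higher (2.29 to 2.70), and Kdelr3 gave 627 and 323. The third receptor, Kdelr1, gave 365 and 337. Copz2, a subunit of the COPI coat, gave 1072 and 463, 2.31-fold higher (2.19 to 2.45). Lman1, a lectin that carries glycoproteins to the Golgi, gave 304 and 162. Of the COPII coat, Sec13 gave 352 and 209, Sec24d 80.6 and 51.9, and Sec23a 87.1 and 69.3. Of the p24 cargo receptors, Tmed3 gave 1008 and 538, whereas Tmed2 gave 686 and 623, Tmed9 601 and 562 and Tmed10 497 and 451.

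The chaperones and folding enzymes summed to 26.4 per 10000 in wild-type Scx-high cells and 31.3 in the fibroblasts (ratio 0.845, 0.824 to 0.867). Pdia6, a disulfide isomerase, gave 307 and 506 CPM, 1.65-fold lower in Scx-high cells (1.54 to 1.77). Canx, the membrane-bound lectin chaperone calnexin, gave 86.7 and 132, and Hspa5, the Hsp70 of the reticulum also called BiP, gave 294 and 413. Hsp90b1, its Hsp90 counterpart, gave 397 and 390. Relative to the median gene the summed group turned to the other side, at a log2 ratio of 0.15, and Pdia6 at -0.33, Canx at -0.22 and Hspa5 at -0.10 stayed below.

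**Figure D3:**
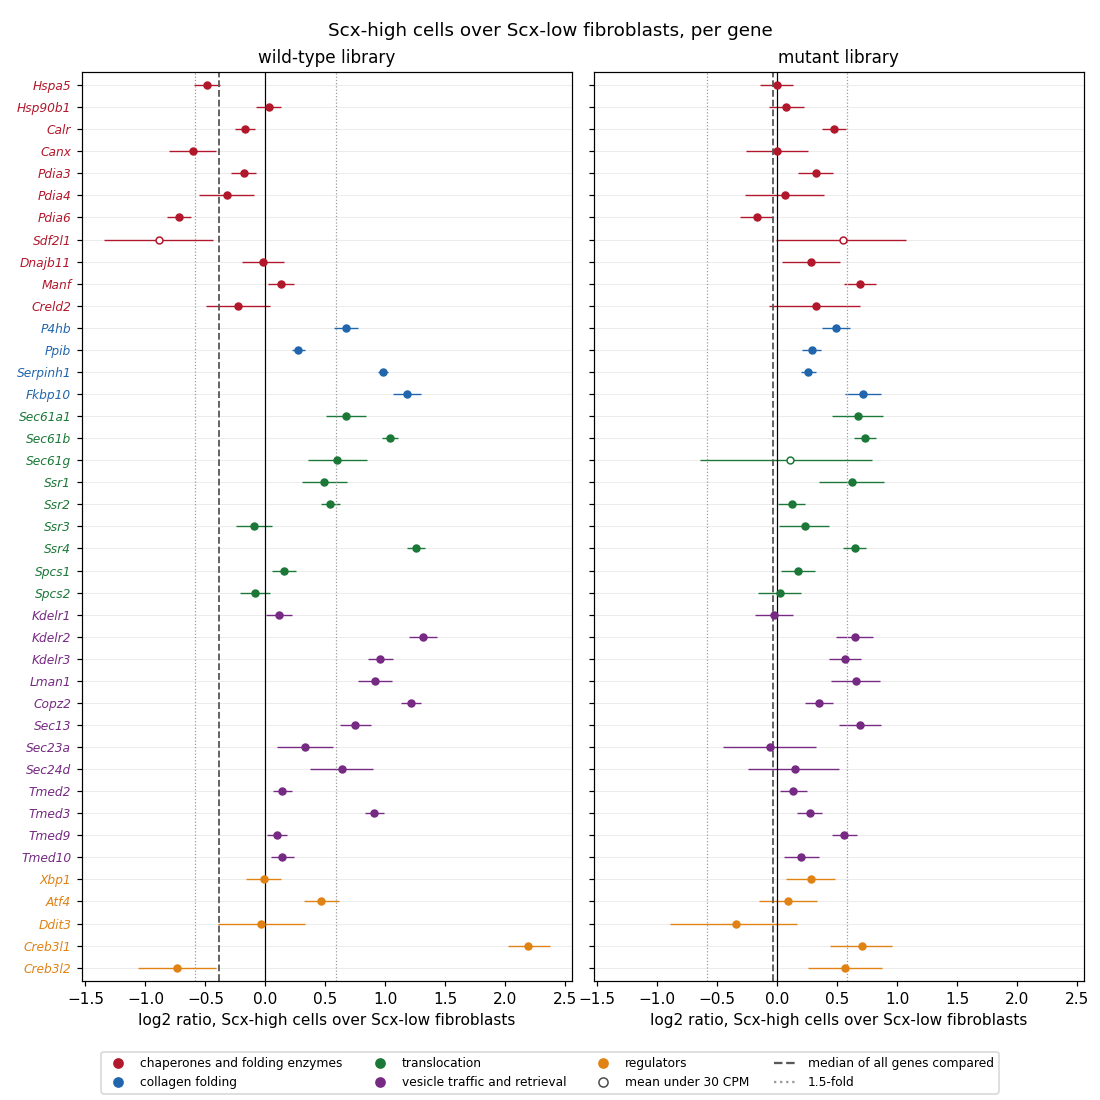
Log2 ratio of summed CPM, Scx-high cells over Scx-low fibroblasts, for each of the 41 genes in the wild-type (left) and mutant (right) library, with exact 95% intervals that cover counting error only, coloured by role. The dashed line is the median of all genes compared (-0.39 and -0.03), dotted lines mark 1.5-fold, and open points had a mean under 30 CPM. Creb3l1 stood farthest to the right in the wild-type library, at 2.19.

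In the mutant library the summed collagen folding, translocation and vesicle genes were again higher in Scx-high cells than in Scx-low fibroblasts, with smaller ratios than in the wild-type library, and there the summed chaperones were higher too. Of 39 members compared there, 10 were at least 1.5-fold higher in Scx-high cells (10.6% of all 4107 genes) and 0 lower (13.2% of all genes), and the median log2 ratio was 0.28 over members and -0.03 over all genes. Collagen folding genes summed to 52.2 and 41.5 per 10000 (ratio 1.26, 1.22 to 1.30), translocation genes to 41.8 and 30.9 (1.35, 1.31 to 1.40), vesicle traffic genes to 54.8 and 42.5 (1.29, 1.25 to 1.32), and chaperones to 37.7 and 32.0 (1.18, 1.14 to 1.22). The 10 came from every group. Manf, a small protein of the reticulum that is secreted under stress, gave 543 CPM in Scx-high cells and 337 in fibroblasts. Fkbp10 gave 446 and 271, whereas Serpinh1 stayed under 1.5-fold at 2513 and 2099. Of the translocation genes, Sec61a1 gave 226 and 142, Sec61b 1148 and 692, Ssr4 1009 and 645, and Ssr1, another TRAP subunit, 131 and 85.2. Of the vesicle genes, Kdelr2 gave 419 and 268, Lman1 240 and 153, and Sec13 323 and 200. The last of the 10 was the regulator Creb3l1, at 152 and 93.6. Sec61g also fell under the minimum level in this library and was not compared.

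Between the libraries, the summed chaperones took a larger share of the UMIs in mutant than in wild-type Scx-high cells, and the sums of the collagen folding, translocation and vesicle genes a smaller one, while most single members differed by less than 1.5-fold. Of 40 members compared, 5 were at least 1.5-fold higher in the mutant library (29.4% of all 3724 genes compared were) and 4 at least 1.5-fold lower (8.43% of all genes). By group, 4 of 10 chaperones were higher, and 1 of 4 collagen folding, 1 of 9 translocation and 1 of 12 vesicle genes were lower. The regulators had 1 in each direction. The median log2 ratio was 0.03 over members and 0.32 over all genes, so that 8 of the 40 members lay above the median gene. The 20 most abundant genes held 17.3% of the UMIs in mutant and 29.9% in wild-type Scx-high cells, and 11 collagen genes held 4.32% and 12.7%. With those 20 genes left out of the totals, 2 members were higher and 10 lower, and against the median gene 1 was higher and 12 lower. The direction of a member between 0 and 0.32 on the log2 scale thus depended on the scaling.

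These values moved together with other differences between the Scx-high cells of the libraries. The mutant had 235 such cells against 1178, and 51 of them held between 30 and 60 Scx UMIs per 10000, just above the gate, against 57 in the wild-type library. Cycling cells, with at least 2 UMIs over proliferation genes, made up 22.1% of them against 9.59%. Fibroblast markers were at 7335 against 1092 CPM and pericyte or smooth muscle markers at 2033 against 569. The 6 skeletal muscle markers summed to 598 against 8.75 CPM, with a median of 0 per cell in both libraries and with Tnnt3 at 0 in the mutant and Myod1 at 0 in the wild-type cells. Cartilage markers were at 505 against 1139. The part of these differences in the values of the secretory genes was not tested. The paper proposes that cells keeping ScxGFP in P7 mutant tendons are newly recruited, since some had weak or no RosaT signal. Whether the mutant Scx-high cells are such cells, and whether they carry the deletion, was not tested.

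Chaperones and folding enzymes summed to 37.7 per 10000 UMIs in mutant and 26.4 in wild-type Scx-high cells, a ratio of 1.43 (1.38 to 1.48). The log2 ratio of this sum was 0.51, and 0.20 against the median gene. Calr, the soluble lectin chaperone calreticulin, gave 925 and 536 CPM, 1.73-fold higher in the mutant (1.60 to 1.86). Hspa5 gave 480 and 294, 1.63-fold higher (1.47 to 1.81). Canx gave 138 and 86.7, 1.59-fold higher (1.31 to 1.92), and Pdia6 gave 474 and 307, 1.54-fold higher (1.39 to 1.70). Against the median gene these 4 stayed above 0 but under 1.5-fold, at log2 ratios of 0.47, 0.39, 0.35 and 0.31. Manf, at 543 and 374, was just under 1.5-fold higher (ratio 1.45, 1.32 to 1.59). Hsp90b1 gave 421 and 397, Pdia3, which pairs with calreticulin and calnexin, 442 and 374, and the co-chaperone Dnajb11 160 and 134. Against the median gene Manf was at a log2 ratio of 0.22, while Hsp90b1, Pdia3 and Dnajb11 were at -0.23, -0.08 and -0.06. Sdf2l1, a cofactor of Dnajb11, was under the minimum level, and its 38 and 75 UMIs came to 35.1 and 15.3 CPM (ratio 2.30, 1.51 to 3.44).

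**Figure D4:**
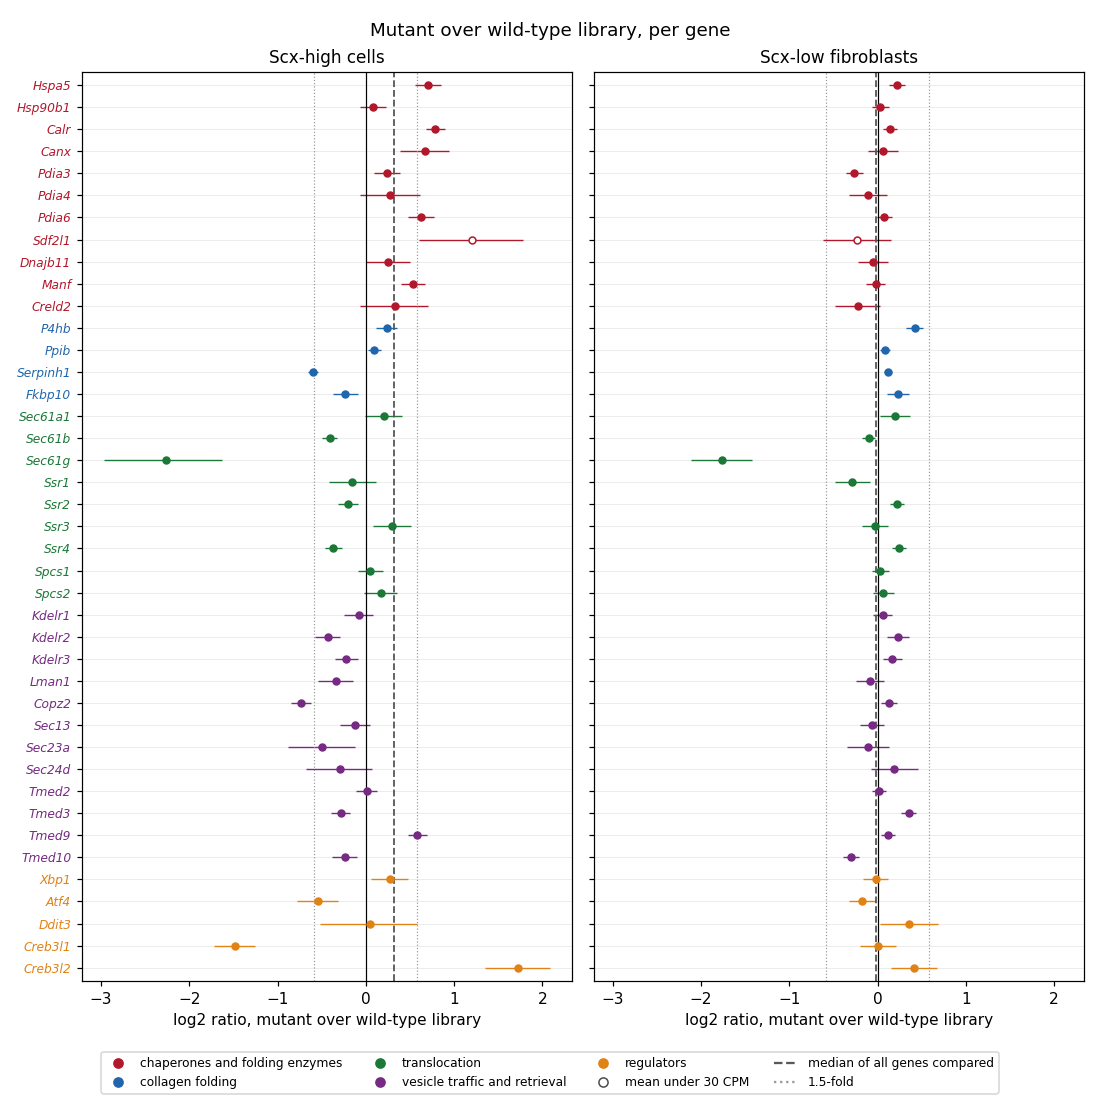
Log2 ratio of summed CPM, mutant over wild-type library, for each of the 41 genes in Scx-high cells (left) and Scx-low fibroblasts (right), with exact 95% intervals that cover counting error only, coloured by role. The dashed line is the median of all genes compared (0.32 and -0.02), dotted lines mark 1.5-fold, and open points had a mean under 30 CPM. In Scx-high cells Creb3l2 was highest (1.72), and Sec61g (-2.26) and Creb3l1 (-1.48) were lowest. In the fibroblasts Creb3l2 was at 0.41, Creb3l1 at 0.00 and Sec61g at -1.76.

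The collagen folding genes summed to 52.2 per 10000 UMIs in mutant and 63.9 in wild-type Scx-high cells (ratio 0.817, 0.794 to 0.841) and, without Serpinh1, to 27.1 and 25.8 (1.05, 1.01 to 1.09). Against the median gene the log2 ratio of the sum was -0.61 with Serpinh1 and -0.25 without it. Serpinh1 gave 2513 CPM in mutant and 3808 in wild-type Scx-high cells, 1.52-fold lower in the mutant (1.46 to 1.58). Without Serpinh1, the log2 ratio of the whole set was -0.04 in place of -0.13. Ppib gave 1567 and 1465, P4hb 695 and 591, and Fkbp10 446 and 524. Col1a1 itself was at 20467 and 73183 CPM, a larger difference than that of any of the 4. The set therefore counted 0.944 UMIs per Col1a1 UMI in mutant Scx-high cells and 0.289 in the wild-type ones, while in the fibroblasts it counted 1.37 and 1.39.

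The vesicle genes summed to 54.8 and 62.5 per 10000 (ratio 0.877, 0.853 to 0.902). Copz2 gave 645 CPM in mutant and 1072 in wild-type Scx-high cells, 1.66-fold lower in the mutant (1.53 to 1.80). Kdelr2 gave 419 and 565, Kdelr3 537 and 627, Kdelr1 344 and 365, and Lman1 240 and 304. Tmed9 was the exception, at 900 and 601, just under 1.5-fold higher. Tmed2, the vesicle gene nearest to no difference, gave 691 and 686. The translocation genes summed to 41.8 and 49.3 (0.848, 0.822 to 0.876). Among them Sec61b gave 1148 and 1524 and Ssr4 gave 1009 and 1302, while Sec61a1, at 226 and 197, Ssr3, at 214 and 174, and Spcs1, at 452 and 436, lay on the other side of 0. All translocation genes lay below the median gene, at a log2 ratio of 0.32, the highest being Ssr3 at 0.30.

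Several of the chaperone genes had a promoter element in common. The element is one known from genes of this stress response, so its share among the members is a description and no test. Promoter windows of 300 bases, 250 before to 50 after the start of the gene, were available from RefSeq for 33 of the 41 members. The endoplasmic reticulum stress element (ERSE), searched on both strands as CCAAT, then 9 bases of any kind, then CCACG, occurred in 6 of these 33 windows (18.2%) and in 39 of all 32851 windows (0.119%). The 6 genes were Hspa5, Calr, Hsp90b1, Canx, Pdia6 and Creld2, all chaperones or folding factors. The related ERSE-II, searched as ATTGG, then 1 base of any kind, then CCACG, occurred in Dnajb11 and in 0.0365% of all windows. UPRE, searched as TGACGTGG, occurred in Sec24d, Sec23a and Kdelr3 and in 0.676% of all windows. The stretches that hold the element are shown because they are what these chaperones have in common in sequence. Each is written 5′ to 3′ on the strand of its gene in GRCm38.p6, with the fixed letters of the element in capitals, which read CGTGG and ATTGG where it lies on the opposite strand.
Hspa5, chr2:34771994-34772073, plus strand: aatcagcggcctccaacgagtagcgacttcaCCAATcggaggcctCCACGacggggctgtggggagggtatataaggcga
Calr, chr8:84847045-84847124, minus strand: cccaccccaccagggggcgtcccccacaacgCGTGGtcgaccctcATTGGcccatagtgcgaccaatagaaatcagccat
Canx, chr11:50325770-50325849, minus strand: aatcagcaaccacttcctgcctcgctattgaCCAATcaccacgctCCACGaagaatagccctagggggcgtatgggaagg
Pdia6, chr12:17266460-17266539, plus strand: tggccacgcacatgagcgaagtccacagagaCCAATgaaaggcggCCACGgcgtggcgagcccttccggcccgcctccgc
Hsp90b1, chr10:86705523-86705666, minus strand: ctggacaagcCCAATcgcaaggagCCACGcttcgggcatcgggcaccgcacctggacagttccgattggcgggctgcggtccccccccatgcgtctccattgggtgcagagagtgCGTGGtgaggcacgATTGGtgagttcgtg
Creld2, chr15:88819489-88819568, plus strand: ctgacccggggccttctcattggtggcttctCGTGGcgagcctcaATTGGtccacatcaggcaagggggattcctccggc

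The element lay from 65 to 47 bases before the start in Hspa5 and farthest out, from 212 to 194 bases, in Hsp90b1, which holds another copy nearer the gene. The 6 genes with an ERSE had a median log2 ratio, mutant over wild-type in Scx-high cells, of 0.65 (range 0.08 to 0.79), against -0.08 (-2.26 to 1.72) for the other 27 members with a window, among them Sdf2l1, which was under the minimum level, and beside 0.32 for all genes compared. In Scx-low fibroblasts the medians were 0.07 and 0.03, beside -0.02 for all genes. For Scx-high cells over fibroblasts they were -0.36 and 0.27 in the wild-type library, beside -0.39 for all genes, and 0.04 and 0.28 in the mutant one, beside -0.03. The ranges of both groups overlapped in each comparison, and these comparisons share their cells. All 6 genes with an ERSE are chaperones or folding enzymes, while most of the other 27 members have other roles. In mutant over wild-type Scx-high cells the 10 chaperones compared had a median of 0.43. Chaperones with a window but no ERSE were also above 0, Pdia3 at 0.24, Pdia4 at 0.28 and Dnajb11 at 0.25, as was Sdf2l1. Against the median gene they were at -0.08, -0.04, -0.06 and, for Sdf2l1, 0.88. The genes with an ERSE were then at 0.47 for Calr, 0.39 for Hspa5, 0.35 for Canx, 0.31 for Pdia6, 0.01 for Creld2 and -0.23 for Hsp90b1. The element was thus not told apart from the role, and its part was not tested. A match is a description of the sequence, and whether any factor binds there was not measured.

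Of the regulators, Creb3l1 and Creb3l2 differed in opposite directions. Both encode membrane-bound transcription factors of the same family that are cut free and act on secretory genes, Creb3l1 (OASIS) being known from bone and Creb3l2 (BBF2H7) from cartilage. Creb3l1 (ENSMUSG00000027230, GRCm38 chr2:91982328-92024502, minus strand) gave 426 CPM in wild-type Scx-high cells, 152 in mutant Scx-high cells, 93.3 and 93.6 in wild-type and mutant Scx-low fibroblasts, and 21.6 and 8.04 in other cells. Its level in wild-type Scx-high cells was thus above all others, and between the fibroblasts of the libraries the interval of the ratio was 0.872 to 1.16. It was 2.80-fold lower in mutant than in wild-type Scx-high cells (2.39 to 3.30). Within the wild-type library it was 4.56-fold higher in Scx-high cells than in fibroblasts (4.05 to 5.16), and within the mutant library 1.63-fold higher (1.36 to 1.94).

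Creb3l2 (ENSMUSG00000038648, GRCm38 chr6:37327255-37442146, minus strand) gave 31.1 CPM in wild-type and 102 in mutant Scx-high cells, from 153 and 111 UMIs. It gave 51.9 and 69.1 in the fibroblasts and 6.64 and 17.9 in other cells. It was 3.29-fold higher in mutant than in wild-type Scx-high cells (2.56 to 4.23). Within the wild-type library it was 1.67-fold lower in Scx-high cells than in fibroblasts (1.33 to 2.09), and within the mutant library 1.48-fold higher (1.19 to 1.83). Over the alternative settings its ratio between the libraries in Scx-high cells ran from 2.64 to 3.47, and the fold by which Creb3l1 was lower ran from 2.35 to 3.48, centring on the median gene included.

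The regulators of the unfolded protein and integrated stress responses differed less than Creb3l1 and Creb3l2. Xbp1 gave 224 CPM in mutant and 186 in wild-type Scx-high cells, and 185 and 188 in fibroblasts. Atf4, which drives genes of amino acid supply, gave 160 and 233 in Scx-high cells and 150 and 169 in fibroblasts. In Scx-high cells the log2 ratios were 0.27 for Xbp1 and -0.55 for Atf4, both below the median gene at 0.32. The intervals of the Atf4 levels there, 137 to 185 and 220 to 247 CPM, did not overlap. Ddit3, the stress factor CHOP, was near the lower limit of the comparison at 33.2 and 32.1, with an interval of the ratio from 0.699 to 1.49. The counts are of genes and do not show the spliced form of Xbp1 or the translation of Atf4.

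In Scx-low fibroblasts the libraries were close to each other for nearly all members. The summed set gave 152 per 10000 UMIs in the mutant and 144 in the wild-type library (ratio 1.06, 1.05 to 1.07). Of 40 members compared, 0 were at least 1.5-fold higher (5.97% of all 4290 genes) and 1, Sec61g, was at least 1.5-fold lower (10.5% of all genes), with median log2 ratios of 0.06 over members and -0.02 over all genes. Apart from Sec61g the log2 ratios ran from -0.30 for Tmed10 to 0.42 for P4hb, which gave 496 and 371 CPM. Serpinh1 gave 2099 and 1934, Hspa5 481 and 413, Copz2 506 and 463, and Kdelr2 268 and 227. Without cells holding at least 5 mural marker UMIs, a filter chosen after these values had been seen, the log2 ratio of the set was -0.02 in place of 0.08. The genes that respond to tissue dissociation, such as Fos, differed between these cells, with 8 of 13 at least 1.5-fold higher and 1 lower in the mutant library and a median log2 ratio of 0.66. In Scx-high cells they were 0 higher and 1 lower of 12, with a median of -0.24. Of all genes compared there, 29.4% were higher and 8.43% lower, with a median of 0.32.

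Sec61g, the small gamma subunit of the Sec61 channel, was lower in the mutant library in every class of cells. It gave 92.8 CPM in wild-type and 19.4 in mutant Scx-high cells, 61.2 and 18.0 in Scx-low fibroblasts, and 59.8 and 11.6 in other cells. Over all cells it had 732 UMIs in the wild-type library and 143 in the mutant one, 4.47-fold fewer per UMI (3.73 to 5.38). Of its partners in the channel, Sec61a1 was higher in the mutant library in each class, at log2 ratios of 0.20 in Scx-high cells, 0.20 in fibroblasts and 0.45 in other cells. The value in other cells rested on 47 mutant and 37 wild-type UMIs, with overlapping intervals of the levels. In Scx-high cells 0.20 lay below the median gene, at 0.32. Sec61b was lower in each class, as Sec61g was, but by less, at -0.41, -0.10 and -0.12. Of 2748 genes compared in all 3 classes, 13 (0.473%) were at least 2-fold lower and 12 (0.437%) at least 2-fold higher in the mutant library in each class, and Sec61g was the only such member among the 34 that could be compared in all 3. A difference of the mice other than the deletion and a difference of the libraries cannot be told apart from the condition.

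Of all classes the set was lowest in other cells. Outside haemoglobin-rich cells they were divided by the marker list with the most UMIs, at least 5. Immune-marked cells held 67.6 per 10000 UMIs in the wild-type library and 67.3 in the mutant one, in 174 and 177 cells. Endothelial-marked cells held 109 and 98.7 (15 and 16 cells), and pericyte or smooth muscle ones 91.2 and 104 (43 and 59). Schwann or neural ones held 126 and 95.4 (1 and 36 cells), and skeletal muscle ones 53.3 and 59.3 (4 and 20). Cells with fewer UMIs of every list held 129 and 102 (36 and 60 cells). Sdf2l1 was higher in the immune-marked cells than in the gated tendon cells, at 140 and 150 CPM against at most 35.1. Serpinh1 was at 127 and 58.1 in these immune-marked cells, and at 1018 and 1364 in the pericyte or smooth muscle ones. Haemoglobin-rich cells, in which haemoglobin genes exceeded 50% of all UMIs and which should make little secreted protein, were taken over all classes. They gave 78.1 and 36.9 per 10000 of their remaining UMIs, in 88 and 79 cells. Of the 88 wild-type ones, 1 was a Scx-high cell, 2 were Scx-low fibroblasts and 85 were other cells, so that 78.1 is not a value of other cells alone. The 79 mutant ones were all other cells. The CPM of single genes and the shares of the set given for all other cells have the haemoglobin UMIs in their totals. The part of free RNA in the levels of other cells was not tested.

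Across cells, the share of UMIs on the set was related to Col1a1, the main cargo, to a different degree in each library and class, most in wild-type Scx-low fibroblasts. As a description over cells that share a library, a depth and a denominator, Spearman's rho between the 2 shares was 0.51 over 828 wild-type and 0.19 over 1910 mutant Scx-low fibroblasts, and 0.20 over 235 mutant Scx-high cells (Pearson's r 0.42, 0.14 and 0.20). Over 358 wild-type and 447 mutant other cells, haemoglobin-rich ones included, rho was 0.36 and 0.33. Over 1178 wild-type Scx-high cells it was -0.17 (r -0.13). There it was -0.05 with Col1a1 left out of the denominator and 0.02 with collagens left out. Col1a1 took a median of 748 per 10000 UMIs in these cells, and its part in the change of rho was not tested. The rho of the set's share with total UMIs per cell ran from -0.27 in wild-type other cells to 0.26 in mutant Scx-high cells.

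Cells of each class were then ranked by Col1a1 and cut into 4 bins of equal cell number, with collagens left out of all totals, a comparison that was added after the members' values had been seen. In wild-type Scx-low fibroblasts, 22 of 40 members were at least 1.5-fold higher in the top than in the bottom bin (15.6% of all genes) and 0 lower (17.6%). Creb3l1 gave 232 CPM in the top and 30.7 in the bottom bin, 7.55-fold higher (5.14 to 11.4), Tmed3 842 and 278, Kdelr2 407 and 137, and Serpinh1 3192 and 1276. Mural markers were at 20358 CPM in that bottom bin and 807 in the top one, and without cells holding at least 5 such UMIs rho was 0.38 in place of 0.51. In mutant Scx-low fibroblasts, 7 of 39 members were higher (5.64% of all genes) and 0 lower (10.8%), namely Serpinh1, Fkbp10, Kdelr3, Copz2, Sec24d, Tmed3 and Creb3l1. Creb3l1 gave 161 and 58.1 there, 2.78-fold higher (2.16 to 3.59).

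In mutant Scx-high cells 9 of 39 members were higher in the top bin (19.4% of all genes) and 1 lower (27%), with Creb3l1 at 271 and 77.2, from 51 and 19 UMIs. In wild-type Scx-high cells 1 of 40 was higher (7.86% of all genes) and 1 lower (19.9%). The 1 higher was Sec61a1, at 294 and 173 CPM, and the 1 lower was Hspa5, at 254 and 438. Chaperones summed to 36.8 per 10000 non-collagen UMIs in the bottom and 26.4 in the top bin of these cells, while collagen folding genes summed to 66.9 and 75.1. The bottom bin held 19.0% cycling cells at a median of 4224 UMIs and the top bin 1.36% at 2868, whose part was not tested. Across both classes of both libraries, the summed collagen folding genes were higher in the top than in the bottom bin, and the summed chaperones were not in wild-type Scx-high cells and mutant fibroblasts.

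**Figure D5:**
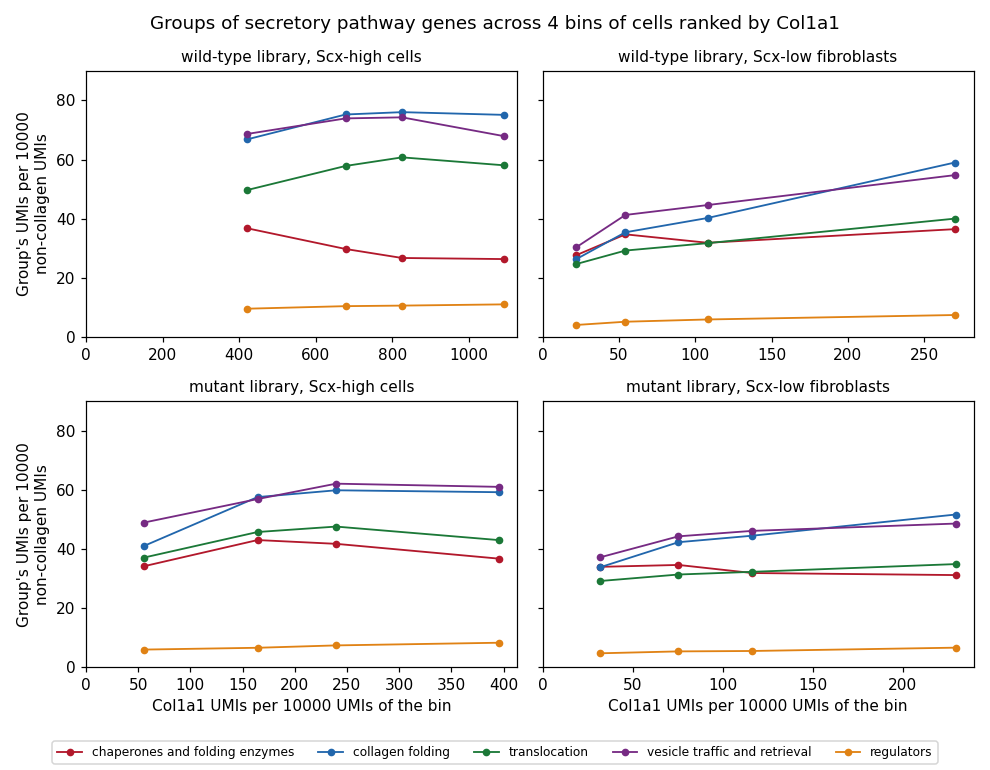
Summed UMIs of each group of genes per 10000 non-collagen UMIs, against the Col1a1 level of the bin (UMIs per 10000), for cells of each class and library ranked by Col1a1 and cut into 4 bins. In wild-type Scx-low fibroblasts the collagen folding genes went from 26.4 in the bottom to 59.0 in the top bin, and in wild-type Scx-high cells the chaperones went from 36.8 to 26.4.

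Other genes of the pathway, taken from lists outside the set, were compared between mutant and wild-type Scx-high cells, where 29.4% of all genes were at least 1.5-fold higher, 8.43% lower, and the median log2 ratio was 0.32. Of the collagen modifying enzymes 2 of 14 compared were at least 1.5-fold higher and 4 lower, with a median log2 ratio of -0.37. Plod2, a lysyl hydroxylase, gave 294 CPM in the mutant and 49.6 in the wild-type library, and P4ha1, a catalytic subunit of prolyl 4-hydroxylase, gave 130 and 829. Of the genes of the unfolded protein response 2 of 11 were higher and 0 lower (median 0.40), a share below that of all genes and a median near theirs, from Dnajb9, a co-chaperone of Hspa5 (42.5 and 20.1), to Herpud1 of protein degradation (154 and 161). Of the integrated stress response 0 of 6 were higher and 2 lower (median -0.09), from Nupr1 (827 and 754) to Phgdh of serine synthesis (29.5 and 101).

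The oligosaccharyltransferase, which attaches sugar chains, had 0 of 10 members higher and 3 lower, from Tusc3 (97.9 and 76.7) to Ddost (278 and 454). Signal recognition and other translocon genes had 2 of 13 higher and 0 lower, from Spcs3 (48.9 and 31.3) to Srp9 (156 and 231). Further COPII coat and cargo genes had 2 of 14 higher and 0 lower, from Lman2 (174 and 85.2) to Surf4 (271 and 372). The COPI coat had 0 of 10 past 1.5-fold in either direction, from Copz1 (137 and 116) to Cope (500 and 739), beside 1.66-fold lower Copz2. The medians of these 4 lists lay between -0.01 and 0.08. In Scx-low fibroblasts, where 5.97% of all genes were higher and 10.5% lower, the same comparison gave at most 2 genes of any of the 7 lists in either direction.

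Within the wild-type library, Scx-high cells had 9 of 15 collagen modifying enzymes at least 1.5-fold higher than Scx-low fibroblasts and 1 lower, beside 9.2% and 36.3% of all genes. P4ha1 gave 829 and 123 CPM, 6.72-fold higher, and its paralogue P4ha2 gave 9.97 and 111, 11.2-fold lower. In the mutant library, where 10.6% of all genes were higher and 13.2% lower, 6 of 15 were higher and 0 lower, led by Plod2 at 294 and 88.6. In the unfolded protein response 2 of 13 were higher and 3 lower in the wild-type library, and 1 of 12 higher and 0 lower in the mutant library.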

How the data were processed

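Cells released from tendons were sequenced as 10x Genomics 3′ libraries. The authors aligned reads to mm10 with Cell Ranger at default settings, kept barcodes by total UMI count, and deposited whole-number UMI counts per gene and cell without normalization. The submitters' processing notes name Cell Ranger 1.2.0, and the methods of the study name another version. All barcodes were used here, with 948 to 14358 UMIs per cell in the wild-type and 903 to 15968 in the mutant library.

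Counts were summed over the cells of a class and scaled to CPM or to 10000 UMIs. Ratios have exact conditional 95% intervals (Clopper-Pearson on the split of both counts) and levels exact Poisson intervals, which cover counting error only. The fold of 1.5 is that of the study's signature genes. Scrublet (scanpy 1.11.5, expected rate 2%) marked only 10 and 5 cells as doublets, and they stayed in. The ratios were tested on simulated Poisson counts, where at least 95.3% of the intervals held the true value. These counts hold no variation between cells, animals or libraries, so this checks the computation only. Promoters are from RefSeq on GRCm38.p6 and coordinates from GENCODE on GRCm38. Python 3.11.15, NumPy 2.4.6 and SciPy 1.17.1 were used.

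The members, lists, gates and settings were chosen with earlier results of these data known. Values are given for members that differed by at least 1.5-fold in a main comparison and, per group, for the member with the most UMIs and the one nearest to no difference, and of each further list for the genes with the highest and lowest ratio in Scx-high cells between the libraries. Other values for single members, the Col1a1 bins, the subsets of other cells and the filter on mural markers were chosen after values had been seen.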

Additional observations from a re-analysis of the deposited data

Results flagged for a closer look

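Several members lay on opposite sides of 0 in both comparisons of a pair, with intervals of counting error that did not include 0. The difference of the log2 ratios is given for each, and with 1 library per condition none of these differences was tested. Between Scx-high cells and Scx-low fibroblasts, the log2 ratio of mutant over wild-type library differed by 0.50 for Pdia3, -0.72 for Serpinh1, -0.46 for Fkbp10, -0.42 for Ssr2, -0.61 for Ssr4, -0.67 for Kdelr2, -0.39 for Kdelr3, -0.86 for Copz2 and -0.64 for Tmed3. Of these 9, all but Pdia3 were lower in mutant than in wild-type Scx-high cells and higher in mutant than in wild-type fibroblasts. Against the median gene, which lay at 0.32 in Scx-high cells, Pdia3 was at -0.08 there and no longer of opposite sign to its fibroblast ratio. Between the wild-type and the mutant library, the log2 ratio of Scx-high cells over fibroblasts differed by -0.65 for Calr, -0.50 for Pdia3 and -1.31 for Creb3l2. Against the median gene of the wild-type library, at -0.39, Calr and Pdia3 were above 0 in both libraries, and Creb3l2 was not.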

How the results depend on the processing

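With 1 library per condition no replicate could be left out, and the settings below change the gates, the cells or the scaling. No paired analysis was possible because each condition has 1 library. In mutant over wild-type Scx-high cells the log2 ratio of the summed set was -0.13, and it was -0.10 with a gate of 60 Scx UMIs per 10000, -0.15 as a mean of per-cell shares, -0.17 for cells thinned to 1500 UMIs, -0.17 without cells with at least 5 mural marker UMIs (a filter added after the data had been seen), -0.37 without the 20 most abundant genes in the totals, -0.44 against the median gene and -0.042 without Serpinh1. The 5 members that were higher became 2 without the 20 most abundant genes, 1 against the median gene and 1 at 2-fold, and the 4 lower became 10, 12 and 2. In Scx-low fibroblasts the log2 ratio of 0.08 was 0.059 without cycling cells, 0.019 as a mean of shares, 0.024 after thinning, 0.10 against the median gene and, with the sign turned, -0.020 without mural-marked cells. The 1 lower member became 0 at a minimum of 100 CPM, which leaves Sec61g out.

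For Scx-high cells over fibroblasts in the wild-type library, 0.55 was 0.53 with a fibroblast gate of 10 UMIs, 0.51 as a mean of shares, 0.52 after thinning, 0.49 without mural-marked cells, 0.86 without the 20 most abundant genes, 0.94 against the median gene and 0.47 without Serpinh1. The 15 higher members became 6 at 2-fold, and the 3 lower became 0 without the 20 most abundant genes, 0 against the median gene and 0 at 2-fold. In the mutant library 0.34 was 0.32 and 0.38 with gates of 15 and 60, 0.39 without cycling cells, 0.41 without the 20 most abundant genes and 0.38 against the median gene, and the 10 higher members became 0 at 2-fold.

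Spearman's rho of -0.17 in wild-type Scx-high cells was -0.050 without Col1a1 in the denominator, 0.024 without collagens and -0.039 with a gate of 15, and 0.51 in wild-type fibroblasts was 0.38 without mural-marked cells. Of the other values, 28 ratios of the set, 51 counts of higher and 49 of lower members and 32 correlations stayed within their interval, within 1.5 times the count, or within 0.1. Some settings change which cells are compared and others only the scaling, and why the values moved was not tested. Members with few UMIs, such as Ddit3 and Sdf2l1, are limited by depth.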
